A study of Mus musculus with 10 samples.

Results

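The genes described here belong to the Wnt pathway: Wnt ligands, their processing enzyme, receptors and co-receptors, secreted inhibitors, cytoplasmic transducers, TCF/LEF factors and a few target genes. They were taken by gene symbol from the platform annotation, with the probe set of highest mean over all arrays standing for each gene. Of 40 genes listed, 39 had a probe set among the 18193 genes on the array, and Tcf7 was not analysed here. Of those 39, 33 passed the filter on dim signal and were tested among 13644 genes. The other 6 are described by their intensities only.

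The cells were 3T3-L1 preadipocytes, a mouse line of fibroblast-like precursors that can form fat cells in culture, kept in DMEM with calf serum. Each group received 60 nM siRNA with the transfection reagent Metafectene Pro. One arm had a scrambled sequence (siC) and the other an siRNA against LSD1 (siLsd1), the histone demethylase encoded by Kdm1a. The 24 h groups were of passage 19 and had 2 arrays each, and the 48 h groups were of passage 21 and had 3 arrays each. No untransfected cells were among the samples, all cells came from 1 line, and the time after transfection and the passage cannot be told apart. The labels call the replicates biological, and each p-value rests on the spread among these few arrays. In such bulk RNA, fewer cells of a type and less RNA per cell cannot be told apart.

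Wnt proteins are secreted ligands that bind Frizzled receptors together with the co-receptors LRP5 and LRP6. Binding passes through Dishevelled, stops the destruction complex of APC, axin and GSK3 from marking beta-catenin for degradation, and lets beta-catenin work with TCF/LEF factors at target genes. Other Wnt ligands act through receptors such as ROR and RYK on cell polarity and movement. In preadipocytes, Wnt signalling through beta-catenin is known as a brake on fat cell formation, with Wnt10b its best known ligand there.

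Values are deposited array intensities on a linear scale. A log2 change is a difference of group means of log2 intensity, and a gene is called when its limma p-value, adjusted by Benjamini-Hochberg over all 13644 genes, is under 0.05. Median intensity per array was 35.6 to 40.6. The dim level was 18.4, the intensity whose log2 is the mean log2 intensity below which 25% of all genes lay. Kdm1a, the target of the siRNA, read 1559 and 1621 in siC versus 1001 and 971 in siLsd1 at 24 h. The 48 h values were 1596, 1787 and 1775 versus 1352, 1336 and 897, and no siLsd1 array reached a siC array at either time. The log2 change of Kdm1a was −0.69 (SE 0.17, limma adjusted p 0.0473) at 24 h and −0.55 (SE 0.14, limma adjusted p 0.0338) at 48 h. At both times this call was lost on leaving out any single 24 h array or any single siC 48 h array, with adjusted p up to 0.252 at 24 h and 0.115 at 48 h. It was lost as well without the intensity trend (0.0903 and 0.0649), at 24 h with all probe sets tested (0.0693) or no dim filter (0.0576), and at 48 h with those groups fitted alone (0.104).

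One array, siLsd1 48 h replicate 3, differed from the rest of its group. Over 6943 genes, the SD of its log2 differences from replicates 1 and 2 was 0.441 and 0.439, against 0.0892 to 0.205 for the other pairs of arrays within a group. Its SD from the siLsd1 arrays at 24 h was 0.361 and 0.353, smaller than from its own group, while replicates 1 and 2 were at 0.431 to 0.452 from those arrays. From the siC arrays at 48 h the SD was 0.599 to 0.604 for replicate 3 and 0.269 to 0.316 for replicates 1 and 2. It gave the lowest of the 6 values at 48 h in 19 of the 33 members tested and the highest in 5, beside 34.9% and 29.3% of all genes. Because all 4 groups share 1 estimate of the spread, this array enters every p-value, and many results are given with and without it. Preadipocyte and fibroblast markers were present, with 7 of 8 above the dim level and Cd34 below it. Their summed intensity was 46154 to 47707 in siC and 42406 to 42861 in siLsd1 at 24 h, and 47895 to 49118 and 35850.0 to 45499 at 48 h. Of the markers of mature adipocytes, 5 of 8 were above the dim level, with sums of 4606 to 4668 in siC against 2377 to 2629 in siLsd1 at 24 h, and 5794 to 6499 against 2373 to 4012 at 48 h. Fabp4, a lipid carrier, made up most of that sum and was called lower at both times (log2 changes −1.28 (SE 0.29, limma adjusted p 0.0358) and −1.16 (SE 0.24, limma adjusted p 0.0183)). Thy1, a fibroblast surface marker, was called lower too (−0.83 (SE 0.14, limma adjusted p 0.0112) and −0.83 (SE 0.12, limma adjusted p 0.00412)). Both 24 h calls were lost without any single 24 h array, those of Fabp4 without any single siC 48 h array at either time, and its 24 h call with all probe sets tested (0.0525), the mean of probe sets (0.0842) or no trend (0.0761). With all arrays no other marker of these 2 lists was called. Without siLsd1 48 h replicate 3, Pdgfra, Pdgfrb, Dlk1 and Cebpa were called lower too at 24 h (limma adjusted p 9.27e-05, 7.48e-05, 0.0108 and 0.0274). In that fit Pdgfrb, Pparg and Cebpa were also called lower at 48 h (limma adjusted p 0.0356, 0.0174 and 0.0381). It called 25.5% of all genes at 24 h and 18.1% at 48 h. At 24 h 5 of the 7 preadipocyte or fibroblast markers tested lay below 0. Col1a2 (0.03) and Vim (0.01), the brightest of them, lay above. Of the 5 mature adipocyte markers tested 4 lay below 0 at 24 h, with Slc2a4 at 0.31. At 48 h all the tested markers of both lists lay below 0. Of the macrophage markers 5 of 6 were above the dim level, with sums of 592 to 609 in siC against 658 to 748 in siLsd1 at 24 h and 639.7 to 678 against 683 to 747 at 48 h, higher on every siLsd1 array of each time. Cd14 was the brightest of these markers and overlapped at 48 h, and none of them was called with all arrays. Without siLsd1 48 h replicate 3, Cd14 was called higher at 24 h (limma adjusted p 0.0167). At 24 h 4 of the 5 tested lay above 0 and Itgam below it (−0.75), and at 48 h all 5 lay above 0. Of the rest, 1 of 4 endothelial and 1 of 4 epithelial markers were above the dim level. The part of all these markers in the results was not tested.

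At 24 h with siLsd1 the ligand gene Wnt4 fell and Ccn4 rose, the latter a known Wnt target that encodes a secreted matricellular protein. These were the 2 members called out of 33, 1 lower and 1 higher, while 5.39% of all genes tested were called. A further 5 members had an unadjusted p under 0.05 without passing the adjusted threshold. That made 7 of 33 with such a p, beside 22.5% of all genes. The median log2 change of the members was −0.16, beside −0.02 over all genes, and 21 of 33 members lay below 0, beside 53% of all genes. When siLsd1 48 h replicate 3 was left out, the log2 changes at 24 h stayed the same by construction and the shared spread became smaller. In that fit 12 of 33 members were called, 4 higher and 8 lower, beside 25.5% of all genes. The count was 0 without any single 24 h array or without siC 48 h replicate 2, and 1 without siC 48 h replicate 3.

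At 48 h limma called 0 of the 33 members, although 12.7% of all genes were called. Of the 33, 10 had an unadjusted p under 0.05, beside 31.7% of all genes. The members' median log2 change was −0.19, beside −0.02 over all genes, and 21 of 33 lay below 0, which became 19 of 33 with arrays centred on the median or quantile normalized. With siLsd1 48 h replicate 3 left out, the median moved to −0.07, and 3 members were called beside 18.1% of all genes: Ccn4 higher, and Axin1 and Tcf7l1 lower. Leaving out siLsd1 48 h replicate 1 gave 4 called members, and leaving out replicate 2 gave 2. The share of all genes called in those fits is not given here, so these counts do not set the members apart.

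**Figure D1:**
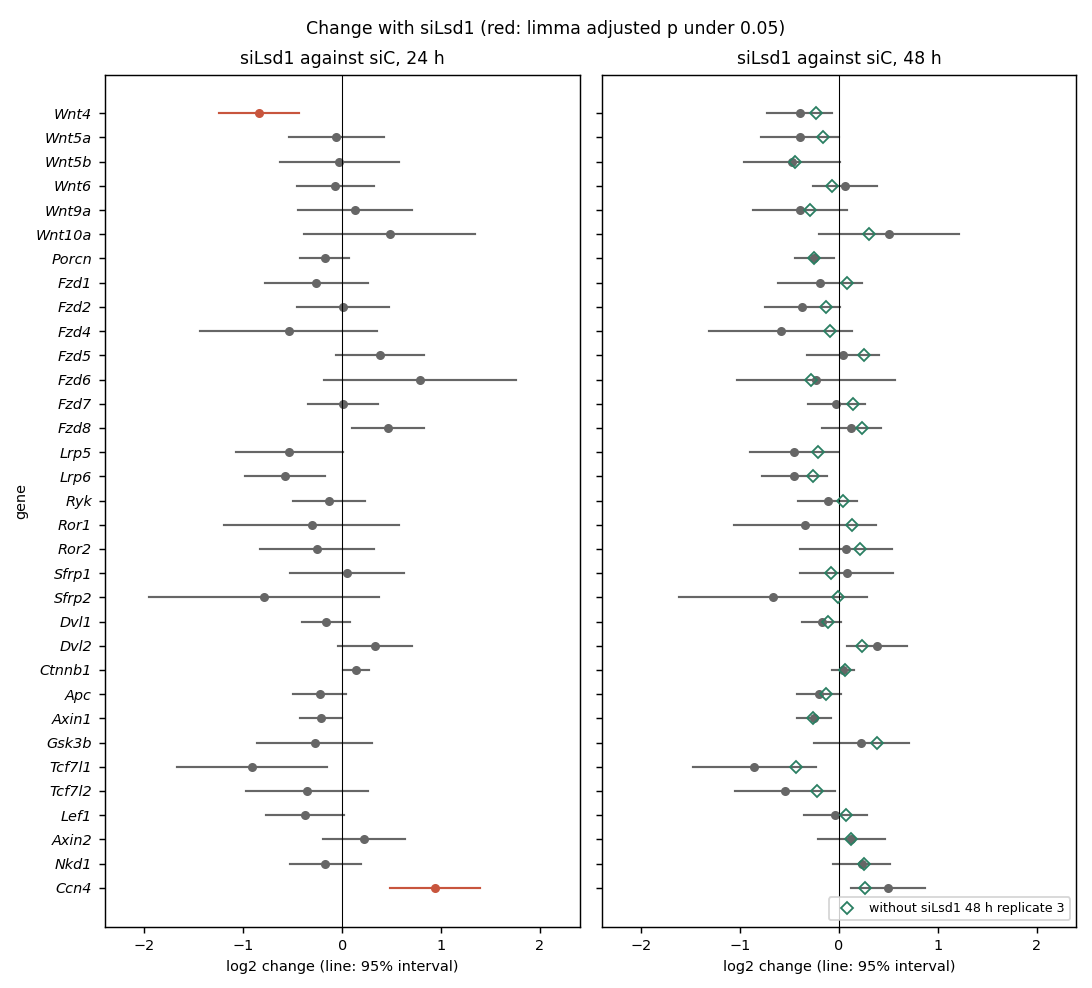
Log2 change with siLsd1 against siC at 24 h and at 48 h for the 33 members tested, with the 95% confidence interval of the limma fit, called changes in red and open diamonds for the 48 h change without siLsd1 48 h replicate 3. Wnt4 at −0.84 and Ccn4 at 0.94 are the members called at 24 h, and none is called at 48 h.

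Promoter sequence is shown for 3 members that the results turn on: Wnt4 and Tcf7l1, whose arrays were lower with siLsd1 at both times, and Dvl1, whose level differed between the times. Each run is the 250 bases before a start site, 5′ to 3′ on the gene's strand, from RefSeq on GRCm38.p6, with motif matches in capitals. The motifs are CTTTG, the core that TCF/LEF factors recognise, and the GC box GGGCGG, each searched on both strands with overlaps allowed. The Wnt4 run is chr4:137277385-137277634 on the plus strand, the Tcf7l1 run is chr6:72789046-72789295 on the minus strand, and the Dvl1 run is chr4:155847152-155847401 on the plus strand.
Wnt4: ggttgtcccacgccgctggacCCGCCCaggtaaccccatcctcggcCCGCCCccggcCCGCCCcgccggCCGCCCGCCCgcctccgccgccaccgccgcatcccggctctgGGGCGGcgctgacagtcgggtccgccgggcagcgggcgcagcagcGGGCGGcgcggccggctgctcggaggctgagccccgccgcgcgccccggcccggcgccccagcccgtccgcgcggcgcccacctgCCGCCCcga
Tcf7l1: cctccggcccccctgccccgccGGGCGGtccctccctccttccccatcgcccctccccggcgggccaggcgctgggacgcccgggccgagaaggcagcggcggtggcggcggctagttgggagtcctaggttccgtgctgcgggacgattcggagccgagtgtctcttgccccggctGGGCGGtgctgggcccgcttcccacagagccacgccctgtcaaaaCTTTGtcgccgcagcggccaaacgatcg
Dvl1: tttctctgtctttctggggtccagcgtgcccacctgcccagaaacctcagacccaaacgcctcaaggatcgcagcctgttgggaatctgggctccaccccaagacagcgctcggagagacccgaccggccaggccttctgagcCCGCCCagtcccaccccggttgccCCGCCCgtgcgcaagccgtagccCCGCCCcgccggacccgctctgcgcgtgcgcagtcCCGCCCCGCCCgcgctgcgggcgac
The Wnt4 run held 8 GC boxes and 85.2% G or C, the Dvl1 run 5 and 71.2%, and the Tcf7l1 run 2 and 73.6%. The Tcf7l1 run also held 1 TCF/LEF core, 28 bases before the start, and the other runs held 0. Of all 32851 start sites in the table, 48.6% had a TCF/LEF core and 32.7% a GC box in the same window. Of the 40 listed genes, 27 had an entry, and 17 of their 36 start sites held a TCF/LEF core. Such matches describe letters only, and Ccn4 and Porcn had no entry.

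Among the ligands, Wnt4 changed. Wnt4 (Entrez gene 22417), which acts in several tissues through either branch of the pathway, read 365 and 335 with siC and 186 and 206 with siLsd1 at 24 h. By 48 h the intensities were 288, 250.04 and 231 with siC and 215, 221 and 154 with siLsd1. Every siLsd1 array was below every siC array of its time, and replicate 3 was the lowest at 48 h. The mean fell from 349.9 ± 21.3 to 196 ± 14.1 at 24 h (SD, n = 2), 1.79-fold (log2 change −0.84, SE 0.18, limma adjusted p 0.0286). The means at 48 h were 256 ± 29.2 and 197 ± 37.1 (SD, n = 3), and the log2 change of −0.40 (SE 0.15, limma adjusted p 0.101) was not called. Without siLsd1 48 h replicate 3 the 48 h change was −0.23 (limma adjusted p 0.165). The gene's other probe set gave −0.50 at 24 h and −0.41 at 48 h. The 24 h call was lost when any of the 24 h arrays was left out, with adjusted p of 0.18 and 0.128 for siC and 0.232 and 0.119 for siLsd1, or siC 48 h replicate 2 (0.0597). It was also lost with the mean of probe sets (0.0643) and without the intensity trend (0.0533), and the range over all alternatives was 0.000153 to 0.232.

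Wnt5a, the best known ligand of the branch that does not use beta-catenin, was the brightest ligand probe set by mean. It read 288 and 303 in siC versus 279.6 and 288 in siLsd1 at 24 h, and 238, 291 and 289 versus 249, 236 and 149.8 at 48 h. The groups were barely apart at 24 h and overlapped at 48 h, where replicate 3 of siLsd1 alone lay clearly below the others. The log2 changes were −0.06 (SE 0.22, limma adjusted p 0.909) and −0.40 (SE 0.18, limma adjusted p 0.156), the latter −0.16 without replicate 3. Wnt6 ranged from 94.2 to 135 over the 10 arrays and Wnt9a from 30.1 to 63.2. Wnt10a ranged from 23.4 to 73.1 and Wnt5b from 19.6 to 34.9, both partly near the dim level. None of these 4 ligands was called in any comparison of the siRNAs. Wnt10b was not above the dim level on any array, with intensities of 1.00 to 4.32, and Wnt11 had a mean log2 intensity below it, with 5.35 to 34.1. Porcn, which attaches the lipid that Wnt proteins need for secretion, read 151 and 143 in siC versus 127 and 133 in siLsd1 at 24 h. In the 48 h arrays it read 199, 196 and 186 versus 169.9, 155 and 164, so that siLsd1 arrays were the lower at both times. These differences, −0.18 (SE 0.11, limma adjusted p 0.377) and −0.25 (SE 0.09, limma adjusted p 0.092), were not called.

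**Figure D2:**
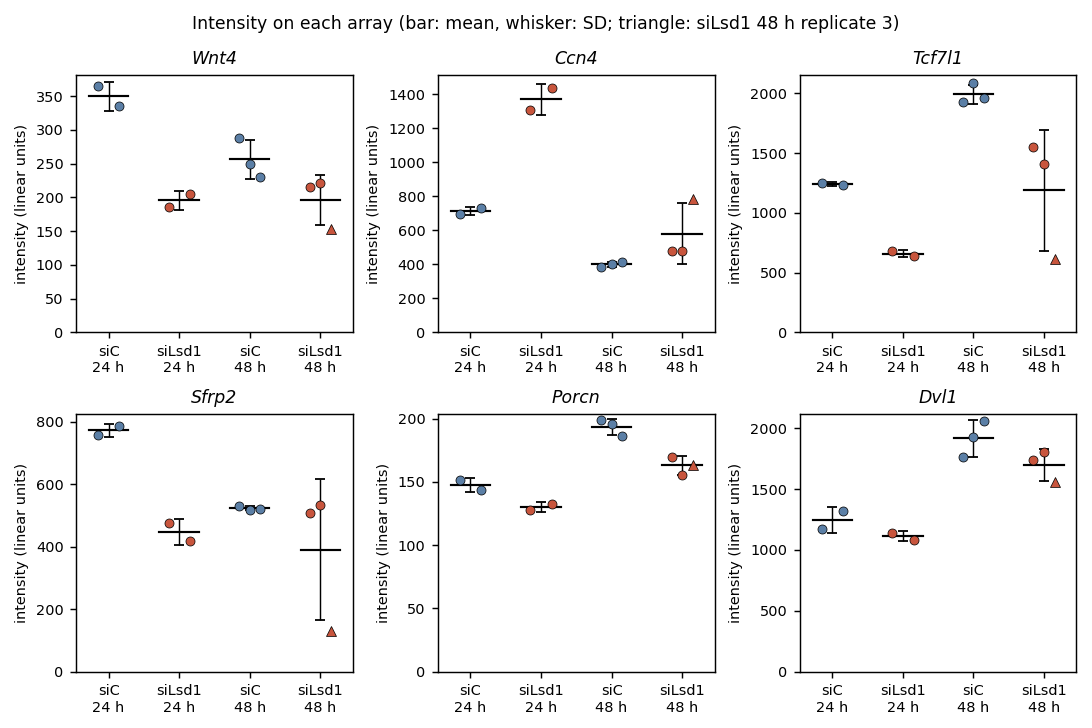
Intensity (linear units) on each of the 10 arrays for Wnt4, Ccn4, Tcf7l1, Sfrp2, Porcn and Dvl1, by group, with points for arrays, a triangle for siLsd1 48 h replicate 3, bars for group means and whiskers for the SD. Wnt4 and Tcf7l1 sit lower with siLsd1 at both times, Ccn4 sits higher, and siLsd1 48 h replicate 3 lies apart from its group for Tcf7l1 and Sfrp2.

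No Frizzled receptor was called with siLsd1. At 24 h 5 of the 7 lay above 0 and 2 below, and at 48 h 2 above and 5 below. Fzd2 and Fzd7 were each at 0.01 at 24 h, and each changed sign in 3 alternatives. At 48 h Fzd7 was at −0.03 and turned above 0 when arrays were centred on the median or quantile normalized. Fzd1 had the brightest receptor probe set, at 1124 and 1170.2 in siC versus 1014 and 903 in siLsd1 at 24 h. Its 48 h intensities were 1544, 1746 and 1816 versus 1857, 1726 and 1021, where replicates 1 and 2 of siLsd1 lay within or above the siC values and replicate 3 far below them. Its log2 changes were −0.26 (SE 0.23, limma adjusted p 0.55) and −0.19 (SE 0.19, limma adjusted p 0.52). The other, dimmer probe set of Fzd1 had the opposite sign at both times (0.27 and 0.22). Fzd4, which also serves as the receptor for norrin, read 382, 409 and 438 with siC and 392, 376 and 136 with siLsd1 at 48 h. There siLsd1 replicate 1 lay within the siC values, replicate 2 just below them and replicate 3 far below. At 24 h its arrays did not overlap, at 377 and 405 versus 264 and 272. Its log2 change of −0.59 (SE 0.33, limma adjusted p 0.244) at 48 h became −0.09 without replicate 3.

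Fzd5 and Fzd8 lay on the other side at 24 h. Fzd5 read 333 and 338 in siC versus 432 and 441 in siLsd1, a log2 difference of 0.38 (SE 0.20, limma adjusted p 0.299). Fzd8 read 125 and 108 versus 176 and 146, a difference of 0.46 (SE 0.16, limma adjusted p 0.129). The other, dim probe set of Fzd8 had the opposite sign (−0.39), and the mean of its probe sets was near 0 (0.04). In the fit without siLsd1 48 h replicate 3, Fzd5 and Fzd8 were called higher at 24 h (adjusted p 0.0149 and 0.0268) and Fzd1 and Fzd4 lower (0.0466 and 0.00112). Over all alternatives the adjusted p at 24 h ran from 0.0143 to 0.738 for Fzd5, 0.0205 to 0.937 for Fzd8, 0.0466 to 0.993 for Fzd1 and 0.00112 to 0.713 for Fzd4. Fzd7 ranged from 533 to 763 over the 10 arrays and Fzd2 from 533 to 1036, the lowest in each case on siLsd1 48 h replicate 3. Fzd6 was near the dim level, at 9.72 to 36.9.

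All 5 co-receptors and alternative receptors lay below 0 at 24 h, also with arrays centred on the median or quantile normalized, and none was called. Ror2 overlapped between the groups there (−0.26), and its change turned above 0 in 1 alternative, at 0.10. Lrp6, a co-receptor of the beta-catenin branch, read 824 and 925 in siC versus 578 and 590.1 in siLsd1 at 24 h. At 48 h the values were 1010.1, 1108 and 1248 versus 929, 933 and 632. All siLsd1 arrays of Lrp6 were below all siC arrays of their time, with replicate 3 the lowest at 48 h. The log2 changes were −0.58 (SE 0.18, limma adjusted p 0.0935) and −0.45 (SE 0.15, limma adjusted p 0.0695). Lrp5, its close relative, read 120.2 and 105 versus 78.8 and 76.4 at 24 h and overlapped at 48 h. Its log2 changes were −0.53 (SE 0.24, limma adjusted p 0.229) and −0.46 (SE 0.20, limma adjusted p 0.147). Leaving out siLsd1 48 h replicate 3, both were called lower at 24 h (adjusted p 0.00122 for Lrp6 and 0.0192 for Lrp5), and neither at 48 h (0.0583 and 0.323). Over all alternatives the 24 h adjusted p ran from 0.00068 to 0.612 for Lrp6 and 0.0192 to 0.543 for Lrp5.

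Ryk, an atypical kinase receptor for Wnt proteins, had the brightest probe set of this group, at 1214 and 1315 in siC versus 1153 and 1153 in siLsd1 at 24 h. At 48 h it read 1235, 1363 and 1478 versus 1498, 1303 and 1003, and the groups overlapped. Its log2 changes were −0.13 (SE 0.16, limma adjusted p 0.685) and −0.12 (SE 0.13, limma adjusted p 0.592). Ror1 and Ror2, receptor kinases of the branch without beta-catenin, ranged from 77.0 to 262 and from 54.6 to 114 over the 10 arrays. The lowest Ror1 value was that of siLsd1 48 h replicate 3.

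Among the secreted inhibitors, none was called, and the 48 h difference of Sfrp2 rested on 1 array. Sfrp2, a soluble protein with a Frizzled-like domain that binds Wnt proteins, read 758 and 786 in siC versus 476 and 417 in siLsd1 at 24 h. At 48 h the siC arrays read 530.3, 516 and 522, and the siLsd1 arrays 508, 532 and 132. Thus the groups were apart at 24 h, while at 48 h replicates 1 and 2 of siLsd1 lay close to the siC values on either side and replicate 3 alone lay far below them. The log2 changes, −0.79 (SE 0.52, limma adjusted p 0.409) and −0.67 (SE 0.43, limma adjusted p 0.31), were not called. Without replicate 3 the 24 h change was called (SE 0.08, adjusted p 5.41e-05), the 48 h change was −0.01 (adjusted p 0.955), and the difference between the times, 0.78, was called (adjusted p 0.00987). Over all alternatives the adjusted p ran from 5.41e-05 to 0.675 at 24 h, 0.13 to 0.955 at 48 h and 0.00987 to 1 for the difference. Sfrp1, a relative, ranged from 42.1 to 80.8 with overlapping groups at both times. Dkk2 and Dkk3, of the Dickkopf family, had mean log2 intensities below the dim level, with arrays at 3.40 to 18.3 and 6.73 to 24.7.

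Dishevelled genes, whose products carry the signal from Frizzled into the cell, were not called with siLsd1. Dvl1 read 1172 and 1323 in siC versus 1141 and 1082 in siLsd1 at 24 h, and 1759.8, 1930.4 and 2061 versus 1738, 1808 and 1555 at 48 h. Its siLsd1 arrays were the lower at 24 h by a small margin and overlapped with siC at 48 h. The log2 changes were −0.16 (SE 0.11, limma adjusted p 0.409) and −0.17 (SE 0.09, limma adjusted p 0.208), and the gene's other probe set had the opposite sign at 24 h (0.09). Dvl2 read 316 and 378 versus 427 and 445 at 24 h and 408, 474 and 457 versus 501, 546 and 719 at 48 h. It was higher on every siLsd1 array of each time, with replicate 3 the highest. Its log2 changes, 0.33 (SE 0.17, limma adjusted p 0.275) and 0.39 (SE 0.14, limma adjusted p 0.0881), missed the threshold. At 24 h Dvl2 was called without siLsd1 48 h replicate 3 (adjusted p 0.0377), and the range over all alternatives was 0.0315 to 0.675. Dvl3 had a mean log2 intensity below the dim level, with arrays at 8.29 to 35.1.

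No gene of beta-catenin and its destruction complex was called between the siRNAs by its brightest probe set. Ctnnb1, which encodes beta-catenin, read 6055 and 6112 in siC versus 6751 and 6656 in siLsd1 at 24 h. The 48 h values were 6142, 5937 and 6473 versus 6343, 6579.5 and 6112, and the groups overlapped. Its log2 changes were 0.14 (SE 0.06, limma adjusted p 0.207) and 0.04 (SE 0.05, limma adjusted p 0.647), with 95% intervals of 0.00 to 0.28 and −0.07 to 0.15. Axin1, the scaffold of the complex, read 669 and 650.4 versus 578 and 558 at 24 h and 594, 658 and 593 versus 493, 529 and 526 at 48 h. All 5 siLsd1 arrays of Axin1 lay below all 5 siC arrays, and replicate 3 did not stand apart here. The log2 changes of Axin1 were −0.22 (SE 0.09, limma adjusted p 0.215) and −0.25 (SE 0.08, limma adjusted p 0.058). On leaving out siLsd1 48 h replicate 3 the change at 48 h was −0.27 and called (adjusted p 0.0248, range over all alternatives 0.000669 to 0.291). The other, dimmer probe set of Axin1 gave 0.08 at 24 h and −0.07 at 48 h. Apc, another scaffold, ranged from 358 to 511 and Gsk3b, the kinase, from 734 to 1519.7. Among the siC arrays at 48 h Gsk3b spread over 734, 1162 and 1336, and its log2 changes of −0.28 and 0.23 were not called. Its 5 other probe sets were all below 0 at 48 h, and over all alternatives the 48 h change ran from −0.44 to 0.40. In a fit of all 34945 probe sets with 1 symbol, a dimmer Gsk3b probe set gave −0.95 (limma adjusted p 0.0324) at 24 h and −0.84 (limma adjusted p 0.0176) at 48 h. A dimmer probe set of Apc gave −0.66 (limma adjusted p 0.0497) and −0.58 (limma adjusted p 0.0245), where the brightest gave −0.23 and −0.20. These probe sets were singled out after their values were seen, and the probe sets of both genes disagree.

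The TCF/LEF factors, which bind the target genes, all lay below 0 at 24 h, under both other scalings too. Tcf7l1, the member of the family best known as a repressor, read 1250.4 and 1232 in siC versus 678 and 638 in siLsd1 at 24 h. By 48 h the intensities were 1931, 2083 and 1959.8 with siC and 1549, 1408 and 610.4 with siLsd1. The groups were apart at both times, and replicate 3 lay far below the other siLsd1 arrays at 48 h. The means were 1241 ± 13.2 and 658 ± 28.6 at 24 h (SD, n = 2), and 1991 ± 80.7 and 1189 ± 506 at 48 h (SD, n = 3). The log2 changes were −0.92 (SE 0.34, limma adjusted p 0.146) and −0.86 (SE 0.28, limma adjusted p 0.0674), so neither was called with all arrays. The gene's other probe set gave −1.02 at 24 h and −0.62 at 48 h. Without siLsd1 48 h replicate 3 the gene was called at 24 h (SE 0.07, adjusted p 1e-05) and at 48 h (log2 change −0.43, adjusted p 0.000999). In that fit the change was smaller at 48 h than at 24 h by 0.49 (SE 0.09, adjusted p 0.031). The 48 h change was also called without siLsd1 48 h replicate 1 or 2. Over all alternatives the adjusted p ran from 1e-05 to 0.424 at 24 h, 0.000496 to 0.173 at 48 h and 0.031 to 1 for the difference.

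Tcf7l2, a main partner of beta-catenin in many tissues, read 691 and 785 in siC versus 576 and 570.4 in siLsd1 at 24 h. In the 48 h arrays it read 861, 1009 and 1061 versus 823, 847 and 424. All its siLsd1 arrays lay below the siC arrays of their time, and replicate 3 was again the lowest. Its log2 changes were −0.36 (SE 0.28, limma adjusted p 0.484) and −0.55 (SE 0.23, limma adjusted p 0.129). Without replicate 3 the 24 h change of Tcf7l2 was called (adjusted p 0.0205) and the 48 h change of −0.22 was not (0.12). The ranges over all alternatives were 0.0194 to 0.759 and 0.0115 to 0.605. Lef1 ranged from 67.5 to 101 over the 10 arrays. It was apart at 24 h (−0.38, SE 0.18, limma adjusted p 0.239) and near 0 at 48 h (−0.04), where its sign turned with arrays centred on the median or quantile normalized.

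Of the targets and feedback genes, Ccn4 changed. Ccn4 (Entrez gene 22402) read 697 and 732 with siC and 1304 and 1434 with siLsd1 at 24 h. Its 48 h intensities were 386, 401 and 413 with siC and 480.2, 477 and 785 with siLsd1. Every siLsd1 array was above every siC array of its time, with replicate 3 the highest at 48 h. The mean rose from 714 ± 24.6 to 1369 ± 92.1 at 24 h (SD, n = 2), 1.91-fold (log2 change 0.94, SE 0.21, limma adjusted p 0.0303). The means at 48 h were 400.0 ± 13.7 and 580.4 ± 177 (SD, n = 3), a difference of 0.50 (SE 0.17, limma adjusted p 0.0754) that was not called. The other probe set gave 1.06 at 24 h and 0.70 at 48 h. The 24 h call was lost when any of the 24 h arrays was left out, with adjusted p of 0.176 and 0.146 for siC and 0.177 and 0.172 for siLsd1, or siC 48 h replicate 2 or 3 (0.0616 and 0.0542). It was lost also without the intensity trend (0.0618), and the range over all alternatives was 1.4e-05 to 0.177. Without siLsd1 48 h replicate 3 the 48 h change was 0.26 and called (adjusted p 0.0227), and it was called too without siLsd1 48 h replicate 1 or 2. The range over all alternatives at 48 h was 0.00527 to 0.175.

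Axin2, a widely used readout of beta-catenin signalling that also feeds back on it, was not called. It read 61.0 and 82.0 in siC versus 83.5 and 81.3 in siLsd1 at 24 h, and 68.1, 59.1 and 78.5 versus 72.0, 76.5 and 73.9 at 48 h, with overlap at both times. The log2 changes were 0.22 (SE 0.19, limma adjusted p 0.53) and 0.12 (SE 0.15, limma adjusted p 0.624), with 95% intervals of −0.19 to 0.64 and −0.22 to 0.46. Nkd1, an inducible inhibitor that binds Dishevelled, read 214 and 212 in siC versus 221 and 162 in siLsd1 at 24 h, with overlap (−0.17, limma adjusted p 0.573). The values were 185, 203 and 236 in siC versus 250.4, 241 and 236 in siLsd1 at 48 h, where the siLsd1 arrays lay above the siC arrays, the closest by a small margin. The log2 change of Nkd1 there was 0.23 (SE 0.13, limma adjusted p 0.262). Nkd2 had a mean log2 intensity below the dim level, with arrays at 10.2 to 26.3.

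**Figure D3:**
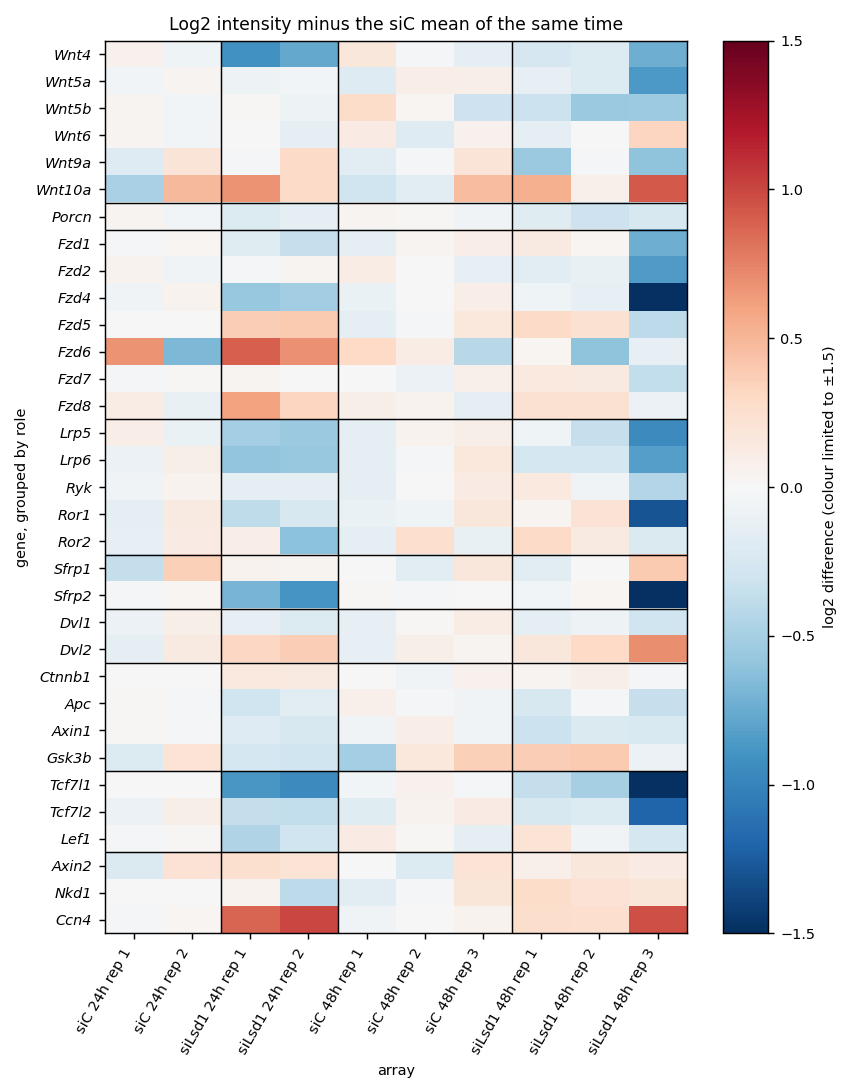
Log2 intensity of the 33 members tested on each of the 10 arrays, minus the mean of the siC arrays of the same time, ordered by role, with the colour limited to 1.5 in either direction. The column of siLsd1 48 h replicate 3 holds deeper values than its neighbours for Sfrp2, Fzd4 and Tcf7l1, and Ccn4 is positive on all siLsd1 arrays.

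Taking both times together, siLsd1 arrays lay below the siC arrays without overlap at each time in 6 of 33 members: Wnt4, Porcn, Lrp6, Axin1, Tcf7l1 and Tcf7l2. That was 18.2% of the members tested, beside 15.7% of all genes. They lay above without overlap in 2, Dvl2 and Ccn4, which was 6.06% of the members beside 11.8% of all genes. Both shares describe the members and do not set them apart from the other genes. Members had 34 further probe sets above the dim level, of which 9 had the opposite sign to the one used at 24 h and 9 at 48 h.

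The difference of the siLsd1 change between 48 h and 24 h asks whether a member responded differently at the 2 times. Limma called 0 of 33 members and 0% of all genes, with 0 members and 896 of all genes at an unadjusted p under 0.05. The difference was 0.44 (SE 0.23, limma adjusted p 0.837) for Wnt4 and −0.44 (SE 0.26, limma adjusted p 0.883) for Ccn4. Their 95% intervals were −0.08 to 0.97 and −1.03 to 0.15, so these arrays do not show a different response at the 2 times, nor an equal one. Without siLsd1 48 h replicate 3, limma called 3 members beside 1.47% of all genes. Sfrp2 and Tcf7l1 had less negative changes at 48 h, as given above, and Ccn4 a smaller rise, with a difference of −0.68 (SE 0.10, adjusted p 0.0106, range over all alternatives 0.0105 to 1). The Wnt4 difference in that fit was 0.61 (adjusted p 0.0809).

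Control cells alone differed between the times. In siC at 48 h against siC at 24 h, Porcn and Dvl1 were higher and Ccn4 lower, 3 of 33 members called, beside 24.2% of all genes. A further 5 members had an unadjusted p under 0.05, which made 8 of 33 with such a p, beside 36.4% of all genes. Tcf7l1 was higher on every siC array at 48 h than at 24 h without being called (0.68, SE 0.31, limma adjusted p 0.143). The members' median log2 change was 0.02, beside 0.01 over all genes, with 18 above 0 and 15 below. Centring the arrays on the median moved the median of all genes by −0.14. The calls were then Dvl1 higher and Wnt4 and Ccn4 lower, 1 higher and 2 lower in place of 2 and 1, with 14 members above 0 and 19 below. This comparison shares the siC 24 h arrays with the 24 h comparison and the siC 48 h arrays with the 48 h comparison. Passage differs with time here and cannot be told apart from it.

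Dvl1 rose in siC from 1247 ± 107 at 24 h (SD, n = 2) to 1917 ± 151 at 48 h (SD, n = 3), 1.54-fold (log2 change 0.62, SE 0.10, limma adjusted p 0.00183). All 3 siC arrays at 48 h lay above both at 24 h, the other probe set gave 0.63, and the call was kept in all 22 alternatives run. Porcn rose from 147 ± 5.55 to 194 ± 6.58, 1.31-fold (log2 change 0.39, SE 0.10, limma adjusted p 0.018), without overlap. Its call was lost without siC 24 h replicate 1 or 2 (adjusted p 0.0747 and 0.124) or siC 48 h replicate 2 (0.0621), and with arrays centred on the median (0.109). The range over all alternatives was 0.0022 to 0.124. Ccn4 fell from 714 ± 24.6 to 400.0 ± 13.7, 1.79-fold (log2 change −0.84, SE 0.19, limma adjusted p 0.0101), also without overlap, and the other probe set gave −1.03. This call was lost without siC 24 h replicate 1 or 2 (0.0598 and 0.0753, range over all alternatives 3.16e-06 to 0.0753). Without siC 24 h replicate 2 only Dvl1 of the 33 members was called. A fit without siLsd1 48 h replicate 3 called 13 members, 9 higher and 4 lower, beside 40.4% of all genes.

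**Figure D4:**
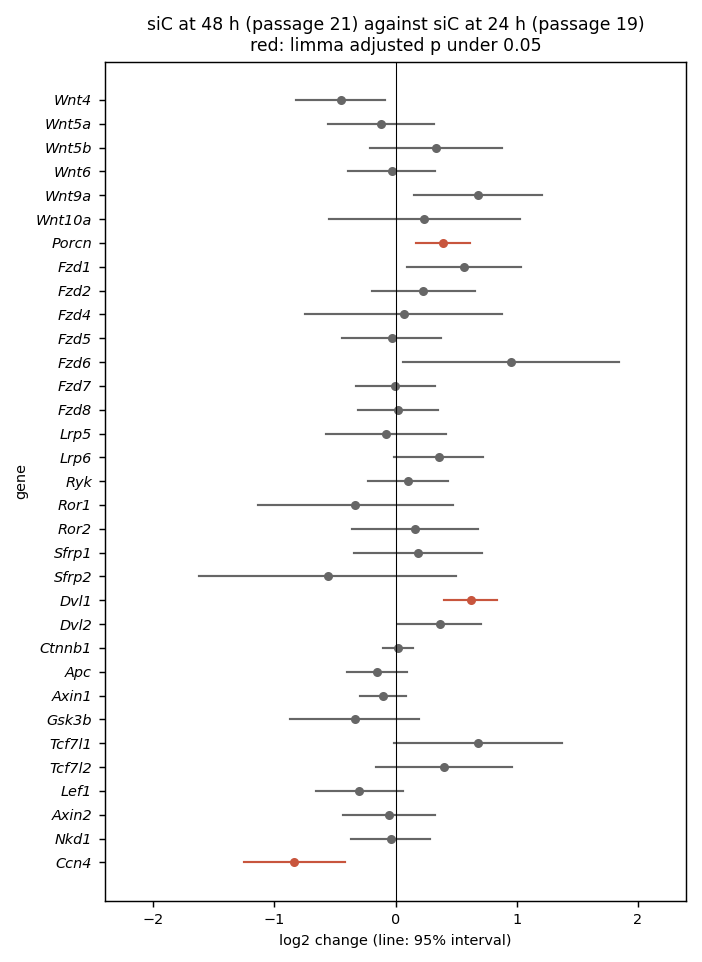
Log2 difference between siC at 48 h and siC at 24 h for the 33 members tested, with the 95% confidence interval of the limma fit and called members in red. Porcn and Dvl1 are called above 0 and Ccn4 below 0, at 0.39, 0.62 and −0.84.

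Other genes of the pathway were read from a list of 81, of which 80 had a probe set and 62 were tested. These hold further ligands and receptors, the R-spondin axis, regulators of beta-catenin, nuclear co-factors, polarity genes and known target genes. At 24 h 5 of 62 were called, 1 higher and 4 lower, beside 5.39% of all genes, and the median log2 change was −0.13. At 48 h 7 of 62 were called, 2 higher and 5 lower, beside 12.7% of all genes, with a median of −0.07. For the difference between the times limma called 0 of 62 and 0% of all genes. An unadjusted p under 0.05 was found for 3 of the 62, beside 6.57% of all genes. In siC over time 9 of 62 were called, 1 higher and 8 lower, beside 24.2% of all genes. Leaving out siLsd1 48 h replicate 3, these counts were 4 higher and 12 lower at 24 h, 3 and 9 at 48 h, 2 and 1 for the difference, and 7 and 14 over time, beside 25.5%, 18.1%, 1.47% and 40.4% of all genes. Each 24 h array left out took the 24 h count to 0 or 1, and siC 48 h replicate 2 left out took it to 3. The 48 h count fell to 3 without either siLsd1 24 h array, and to 2, 2 and 4 without siC 48 h replicate 1, 2 or 3.

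Prickle2, a core gene of planar cell polarity, read 338 and 283 in siC versus 139 and 168 in siLsd1 at 24 h, and 337, 319.6 and 304 versus 217, 208 and 147 at 48 h. It fell 2.02-fold at 24 h, a log2 change of −1.02 (SE 0.19, limma adjusted p 0.0168), and 1.70-fold at 48 h, a log2 change of −0.77 (SE 0.15, limma adjusted p 0.0162), with no overlap at either time. Ctnnbip1, which encodes an inhibitor of the binding of beta-catenin to TCF factors, read 529 and 486 versus 302 and 351 at 24 h. It fell 1.56-fold (log2 change −0.64, SE 0.13, limma adjusted p 0.0212) and was also called lower at 48 h (log2 change −0.58, SE 0.10, limma adjusted p 0.00985). Jun, a transcription factor gene listed among Wnt targets, read 977 and 972 versus 1577 and 1473 at 24 h. It rose 1.56-fold (log2 change 0.65, SE 0.09, limma adjusted p 0.00476) and was called higher at 48 h too (log2 change 0.30, SE 0.07, limma adjusted p 0.0276). Cd44, listed among the same targets, was called lower at both times (log2 changes −0.39 and −0.43). The Cd44 call was lost in 9 alternatives at 24 h and in 1 at 48 h. Ccnd1, which encodes cyclin D1, read 5283 and 5775 versus 3957 and 4046 at 24 h, a fall of 1.38-fold (log2 change −0.47, SE 0.11, limma adjusted p 0.0347). Ccnd1 intensities at 48 h were 2776, 3298 and 3580.1 versus 3186, 3094 and 2996, with overlap (log2 change −0.05, SE 0.09, limma adjusted p 0.734). The 24 h calls of Prickle2, Ctnnbip1 and Ccnd1 were lost without any single 24 h array, that of Jun without either 24 h siC array or the first 24 h siLsd1 array, and that of Ccnd1 also without siC 48 h replicate 2. The 24 h call of Ccnd1 was lost with all probe sets tested (0.0516), the mean of probe sets (0.0755) or no trend (0.0875). The 48 h call of Ctnnbip1 was kept without each array in turn. The 48 h call of Jun was lost (adjusted p 0.0518 to 0.0932) on leaving out replicate 1 or 2 of siLsd1 at 24 h, replicate 1 or 2 of siC at 48 h, or replicate 1 of siLsd1 at 48 h. It was lost too with the mean of probe sets (0.642) and with the 48 h groups fitted alone (0.0973).

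Myc, a growth regulator and known target of beta-catenin, read 267, 294 and 288 in siC versus 459, 449.6 and 995 in siLsd1 at 48 h. It rose 2.08-fold (log2 change 1.06, SE 0.25, limma adjusted p 0.0274), with replicate 3 far above the other siLsd1 arrays, and the change was 0.68 without that array (adjusted p 8.88e-05). At 24 h Myc read 882 and 952 versus 1382 and 1368, apart but not called (log2 change 0.59, SE 0.31, limma adjusted p 0.294). Tle2, a co-repressor that TCF factors recruit, read 1194, 1198 and 1176 in siC versus 786, 823 and 382 in siLsd1 at 48 h. It fell 1.90-fold (log2 change −0.92, SE 0.24, limma adjusted p 0.0347), and the change was −0.56 without replicate 3 (adjusted p 0.00021). The 24 h change of Tle2, −1.15, was not called with all arrays and was called without replicate 3 (limma adjusted p 3.19e-06). In that fit the difference between the times, 0.58, was called too (limma adjusted p 0.0175), as it was not with all arrays. Vangl1, a polarity gene, read 227, 218 and 236 versus 173, 166 and 104 at 48 h and fell 1.58-fold (log2 change −0.66, SE 0.18, limma adjusted p 0.0394), or in log2 by 0.42 leaving out replicate 3 (adjusted p 0.0121). Its mean over probe sets was not called (−0.32, adjusted p 0.207). The 48 h calls of Myc, Tle2 and Vangl1 were lost without any single siC 48 h array, that of Prickle2 without siC 48 h replicate 1 or 2. Those of Tle2 and Vangl1 were lost also without any single 24 h array, and that of Myc without either siLsd1 24 h array. Their adjusted p with 1 array left out ran from 8.88e-05 to 0.0861 for Myc, 0.00021 to 0.105 for Tle2 and 0.0121 to 0.106 for Vangl1. Without the intensity trend the 48 h calls of Myc, Tle2 and Vangl1 were lost (0.0524, 0.0644 and 0.0637). With the 48 h groups fitted alone so were those of the same 3 genes (0.0919, 0.103 and 0.106) and of Prickle2 (0.0593). That of Vangl1 was lost with all probe sets tested (0.0527) or no dim filter (0.0523).

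**Figure D5:**
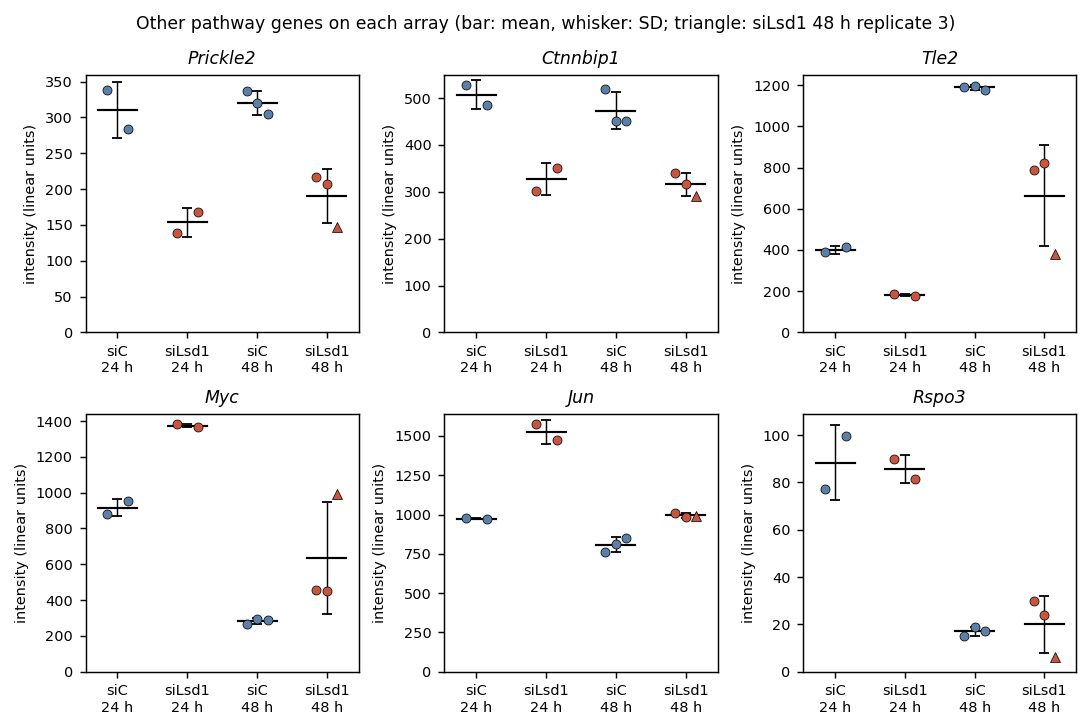
Intensity (linear units) on each of the 10 arrays for Prickle2, Ctnnbip1, Tle2, Myc, Jun and Rspo3, by group, with points for arrays, a triangle for siLsd1 48 h replicate 3, bars for group means and whiskers for the SD. Prickle2 and Ctnnbip1 lie lower with siLsd1 at both times, Myc and Jun lie higher, and Rspo3 and Myc lie lower in siC at 48 h than at 24 h.

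In siC over time, the 4 called differences largest in the fit were lower at 48 h, and Tle2, chosen after its values were seen, was the called gene that was higher. Rspo3, an R-spondin that strengthens Wnt signals, fell from 77.0 and 99.5 to 15.1, 19.0 and 17.1, with the mean of the latter below the dim level. Set against that level, or the array's own value where higher, it was at least 4.70-fold lower (limma adjusted p 0.0101). Myc fell from 882 and 952 to the 48 h values given above, 3.24-fold (log2 change −1.70, SE 0.28, limma adjusted p 0.0022). Ccn5, a relative of Ccn4, fell from 974 and 816 to 309.6, 298 and 272, 3.04-fold (log2 change −1.61, SE 0.26, limma adjusted p 0.00206). Id2, an inhibitor of helix-loop-helix factors, fell from 1343 and 1357 to 415, 455 and 488, 2.99-fold (log2 change −1.58, SE 0.18, limma adjusted p 0.00027). Tle2 rose from 388 and 414 to 1194, 1198 and 1176, 2.97-fold (log2 change 1.57, SE 0.27, limma adjusted p 0.0026), and its call was kept in all 22 alternatives run. None of these 5 overlapped between the times. The calls of Myc, Ccn5 and Id2 were kept without each array in turn, and that of Rspo3 was lost without siC 24 h replicate 1 or 2 (adjusted p 0.0525 and 0.0831, lowest with 1 array left out 7.06e-06).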

How the data were processed

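Transcript levels were read on 10 Affymetrix arrays. The authors deposited 1 intensity per probe set and array on a linear scale, from biotin-labelled cRNA per the labels. Summarisation, normalization and genome build are not given in the sources used here. Log2 of the intensity was taken with nothing added. The platform annotation gave gene names: of 45037 probe sets, 34945 had 1 symbol, 932 several and 9160 none. The probe set of highest mean log2 intensity stood for a gene, and the dimmest 25% of 18193 genes, by mean log2 intensity, were left out. A mean per group was fitted with limma 3.58.1 in R 4.3.3 (lmFit, eBayes with intensity trend, 6 residual degrees of freedom), with Benjamini-Hochberg adjustment over 13644 genes and a threshold of 0.05. The fit was tested on simulated data. Means ± SD are of linear intensity.

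The members and lists were chosen with earlier results of these data known. Members called in any comparison, and the brightest of each role, are named with every array's value, and of the other pathway genes up to 4 called per comparison, with Myc and Ccnd1. Cd44 was added after its values were seen and is given by its log2 changes only. Other members given array by array were chosen after their values were seen. Alternatives were other probe set rules, dim filters and scalings, 16 added to the intensity, array weights, no trend, the groups fitted alone, a replicate block, an average of 2 siLsd1 48 h arrays and each array left out. Promoters came from RefSeq on GRCm38.p6. Figures were drawn with matplotlib 3.10.9.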

Additional observations from a re-analysis of the deposited data

How the results depend on the processing

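No change named here that was called with all arrays turned its direction under any alternative run for it. Of the member changes named as called without siLsd1 48 h replicate 3, those of Fzd1 at 24 h, and of Sfrp2 and Tcf7l1 between the times, did so. They reached 0.0039, −0.22 and −0.19. At 24 h, where 2 members were called, the count was 1 with the mean of probe sets, 0 without the intensity trend, 11 with array weights and 11 with the groups fitted alone. At 48 h, where 0 were called, it was 1 with the mean of probe sets, 1 with the lowest 50% left out, 1 with quantile normalization, 11 with array weights and 2 with siLsd1 48 h replicates 1 and 2 averaged. For the difference between times it was 2 with array weights in place of 0. For siC over time it was 5 with quantile normalization, 13 with array weights and 11 with the groups fitted alone, in place of 3. With each array left out in turn the counts were 0 to 12 at 24 h, 0 to 4 at 48 h, 0 to 3 for the difference and 1 to 13 over time. Member counts here are not set beside the share of all genes called in each setting, and do not set the members apart. Without siLsd1 48 h replicate 3, which gave the 12 and the 13, those shares were 25.5% and 40.4%. Arrays with the same replicate number did not deviate together (correlations −0.24 at 24 h, and −0.23, 0.05 and −0.10 at 48 h). With 2 arrays a group the 24 h value is 1 number by construction, and that of crossed numbers is its mirror, 0.24. A replicate block gave 0 members called at 24 h and 5 over time, and a block with the 24 h numbers crossed, chosen after seeing the data, gave 1 at 24 h. Of the calls named here, with Cd44 left aside, the block ended those of Kdm1a, Wnt4, Ccn4, Prickle2, Ctnnbip1, Ccnd1 and Fabp4 at 24 h (adjusted p 0.0549 to 0.107). At 48 h the block ended those of Kdm1a, Jun and Vangl1 (0.0664 to 0.0907). The crossed block ended those of Kdm1a, Ccn4, Ctnnbip1, Ccnd1 and Fabp4 at 24 h (0.0547 to 0.106). The 48 h call of Fabp4 was lost with the groups fitted alone (0.0703). With 2 or 3 arrays a group, and 6 of 39 members near background, small changes cannot be resolved. The cause of these shifts was not tested.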
